A study of Mus musculus with 12 samples.

Results

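The genes described are the nuclear-encoded subunits of oxidative phosphorylation, as measured by RNA sequencing in pancreatic islets of wild-type and Wfs1-mutant mice. Members were chosen by symbol: every entry of the islet table that begins with Ndufa, Ndufb, Ndufc, Ndufs, Ndufv, Uqcr, Cox4, Cox5, Cox6, Cox7, Cox8 or Atp5, together with Sdha, Sdhb, Sdhc and Sdhd, leaving out the Ndufaf assembly factors and duplicate or pseudogene names. The rule found 86 of the 24078 entries. Of these, 38 belong to complex I, 4 to complex II, 8 to complex III, 18 to complex IV and 15 to complex V by their names. The other 3 encode no subunit: Cox4nb is an older symbol of Emc8, a subunit of the endoplasmic reticulum membrane protein complex, Atp5sl is an older symbol of Dmac2, a factor of complex I assembly, and Atp5s encodes a factor coupled to ATP synthase. This leaves 83 subunit genes. Ndufa4 is counted with complex I by its symbol, although its protein is known as a subunit of complex IV. The mitochondrially encoded subunits were not analysed here.

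Islets came from male F2 hybrid mice of 129S6/SvEvTac and C57BL/6 background aged 5 to 6 months, in 3 genotypes with 4 animals each: WT, heterozygous Wfs1HZ and homozygous Wfs1KO. The Wfs1 allele carries a LacZ cassette in place of most of exon 8 in every cell of the animal, so it is not specific to islets. Per the paper, the mutant still makes a truncated protein, its N-terminal part fused to LacZ, and is not a complete knockout. Islets were freed with collagenase, picked by hand and kept overnight in high glucose medium, and each library was made from 10 ng of total RNA. Levels are in RPKM, reads per kilobase of transcript scaled to the mapped reads of the library, so levels can be compared between genes per unit of length.

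Oxidative phosphorylation couples the oxidation of NADH and succinate to ATP synthesis in the inner mitochondrial membrane. Complexes I and II pass electrons to ubiquinone, complex III passes them on to cytochrome c, complex IV reduces oxygen, and complex V, the ATP synthase, uses the proton gradient that complexes I, III and IV build. In beta cells the ATP made from glucose closes the ATP-sensitive potassium channel, which leads to insulin release. Most subunits are nuclear-encoded, and several complex IV subunits have separate isoforms for heart and skeletal muscle, lung or testis.

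Wfs1 itself ranged from 24.9 to 33.9 RPKM in WT, from 4.69 to 16.4 RPKM in Wfs1HZ and from 2.45 to 6.61 RPKM in Wfs1KO. WT lay above all other animals, while Wfs1HZ replicate 2 lay inside the Wfs1KO range. Reads from exons upstream of the deletion can still be counted in Wfs1KO. The steps of low RPKM values placed the reads behind each library between 2172000 in Wfs1HZ replicate 2 and 9386000 in Wfs1KO replicate 1, a rough estimate that lies far below the sequencing totals stated for the libraries. The gap was not resolved, so read numbers given for single genes are approximate. Wfs1HZ replicate 2, the lowest by this estimate, had the most entries above 0 RPKM, 20954. Endocrine hormone markers were abundant in every library. The 8 beta cell markers summed to between 12510 and 179825 RPKM, mostly from Ins1, Ins2 and Iapp. Mafa, also on that list, did not exceed 0.35 RPKM in any animal. Markers of acinar cells, the enzyme-secreting cells that surround islets, were abundant too, and all 11 were detected. Their summed level ran from 53534 to 120423 RPKM in WT, from 9050 to 306526 RPKM in Wfs1HZ and from 8468 to 278017 RPKM in Wfs1KO. In bulk islets, a smaller number of cells of one type and less RNA per cell cannot be told apart.

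Sequences are shown because they bear on which entries could be measured at all and on what the genes share outside the RNA data. The NRF1 motif, GCGCA, any base and GCGC in a row, was searched for on both strands in the window from 250 bases before to 50 bases after the RefSeq start (GRCm38.p6). NRF1 is a transcription factor known for its sites in respiratory chain genes. Some genes have more than 1 window, and a gene was counted if any of its windows matched. Of 67 subunit genes with such a window, 17 held the motif, or 25.4%, against 5.19% of all 27025 genes. The motif AAGATGGCG of YY1, a zinc finger factor, was in 7 subunit genes, or 10.4%, against 1.64% of all. The motif TNAAGGTCA of the oestrogen-related receptor ERRA was in 3 subunit genes, or 4.48%, against 1.43%. The motif CCGGAAGTG of GABPA, an ETS factor, was in 2 subunit genes, or 2.99%, against 2.25%. At least 1 of the 4 motifs was in 25 subunit genes and 2 or more were in 4. A match describes letters and does not show binding. Windows are printed 5′ to 3′ along the gene for Atp5g3 (chr2:73911277-73911576), Sdhd (chr9:50603800-50604099) and Ndufs6 (chr13:73328433-73328732), all on the minus strand, with motif matches in capitals. The capitals mark NRF1 and ERRA matches in Atp5g3 and Sdhd, and NRF1 and YY1 matches in Ndufs6.
Atp5g3: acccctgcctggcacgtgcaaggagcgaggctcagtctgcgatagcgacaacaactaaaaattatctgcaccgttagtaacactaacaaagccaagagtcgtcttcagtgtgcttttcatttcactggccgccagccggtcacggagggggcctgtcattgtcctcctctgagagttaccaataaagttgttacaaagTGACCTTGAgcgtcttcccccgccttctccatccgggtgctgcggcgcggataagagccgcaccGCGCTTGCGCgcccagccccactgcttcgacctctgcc
Sdhd: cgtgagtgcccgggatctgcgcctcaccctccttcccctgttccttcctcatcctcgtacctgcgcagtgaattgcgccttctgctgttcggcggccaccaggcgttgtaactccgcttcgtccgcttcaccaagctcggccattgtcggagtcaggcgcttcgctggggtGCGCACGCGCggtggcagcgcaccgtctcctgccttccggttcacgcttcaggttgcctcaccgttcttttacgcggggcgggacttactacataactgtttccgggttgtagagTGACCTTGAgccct
Ndufs6: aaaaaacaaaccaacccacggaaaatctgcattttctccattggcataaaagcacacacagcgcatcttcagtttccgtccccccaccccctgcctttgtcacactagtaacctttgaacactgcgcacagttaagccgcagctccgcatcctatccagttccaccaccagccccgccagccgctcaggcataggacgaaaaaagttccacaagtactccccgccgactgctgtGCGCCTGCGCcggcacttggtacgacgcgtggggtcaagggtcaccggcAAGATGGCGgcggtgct
In Atp5g3, which encodes the c-ring subunit of ATP synthase, the NRF1 match lay 12 bases after the start and the ERRA match 52 bases before it. In Ndufs6, an accessory subunit of complex I, the NRF1 match lay 16 bases before the start and the YY1 match 33 bases after it. Among the subunit genes with no window were Ndufs1, Sdhc, Cox4i2, Atp5f1, Uqcrc2, Cox6a2, Cox4i1, Ndufa4l2, Uqcrq, Cox8c, Uqcrb, Cox6c, Ndufb9, Ndufa2 and Atp5a1.

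The second set concerns Ndufs5, an accessory subunit of complex I, which was listed at 0 RPKM in 10 of 12 animals and at 3.57 and 0.27 RPKM in Wfs1HZ replicates 2 and 3. Its coding sequence (gene at chr4:123712710-123718202, minus strand, GRCm38) matched the processed pseudogene BC002163 (chr16:42955631-42955949) over 319 bases with 2 differences, T81C and A105G, counted from 1 at the start codon with the Ndufs5 base first. The first 120 bases of both are given, with the differing bases in capitals.
Ndufs5: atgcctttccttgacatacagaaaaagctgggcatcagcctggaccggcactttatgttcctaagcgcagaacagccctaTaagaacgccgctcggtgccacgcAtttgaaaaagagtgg
BC002163: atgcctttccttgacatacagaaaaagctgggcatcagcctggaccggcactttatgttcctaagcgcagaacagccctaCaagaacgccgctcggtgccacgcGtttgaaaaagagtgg
The table lists BC002163 in 2 entries. One was 0 except in the same 2 Wfs1HZ animals, at 3.75 and 0.28 RPKM. The other held 4.03 to 22.1 RPKM across the 12 animals. The RPKM of Ndufs5 is therefore reported as uncertain, since reads of the gene and its copy cannot be told apart from these values.

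Near-identical copies were common among the members. By blastn, 21 of 86 members had at least 1 other annotated transcript matching at least 95% of bases over at least 80% of the coding sequence. Of these 38 copies, 36 were annotated as pseudogenes. The median of the mean levels was 13.9 RPKM for the 21 members with a copy and 37.5 RPKM for the 65 without. Of 18 subunit genes with a mean under 10 RPKM, 9 had a copy. Among them were Ndufb4 (mean 3.10 RPKM, copy Ndufb4c), Uqcrb (3.85 RPKM), Ndufab1 (3.97 RPKM), Ndufs3 (6.27 RPKM), Atp5g2 (8.18 RPKM), Ndufa12 (8.43 RPKM), Atp5g1 (8.80 RPKM) and Atp5l (8.87 RPKM). Levels of all 21 are uncertain because the counting could have split or dropped their reads, a part that was not tested.

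All 86 members passed the filter of a mean of at least 0.1 RPKM. Averaged over the 12 animals, 7 subunit genes lay at or above 100 RPKM, 58 between 10 and 100 RPKM, 12 between 1 and 10 RPKM and 6 under 1 RPKM, with a median of 29.9 RPKM. Atp5b, the catalytic beta subunit of the F1 part of ATP synthase (chr10:128083273-128090391), stood far above all others at a mean of 912 RPKM and made up 12.4% to 33.2% of the summed level of all subunit genes in an animal. Its partner in the F1 hexamer, the alpha subunit Atp5a1, averaged 141 RPKM. These are levels per kilobase, and the proteins occur in equal number in the enzyme.

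**Figure D1:**
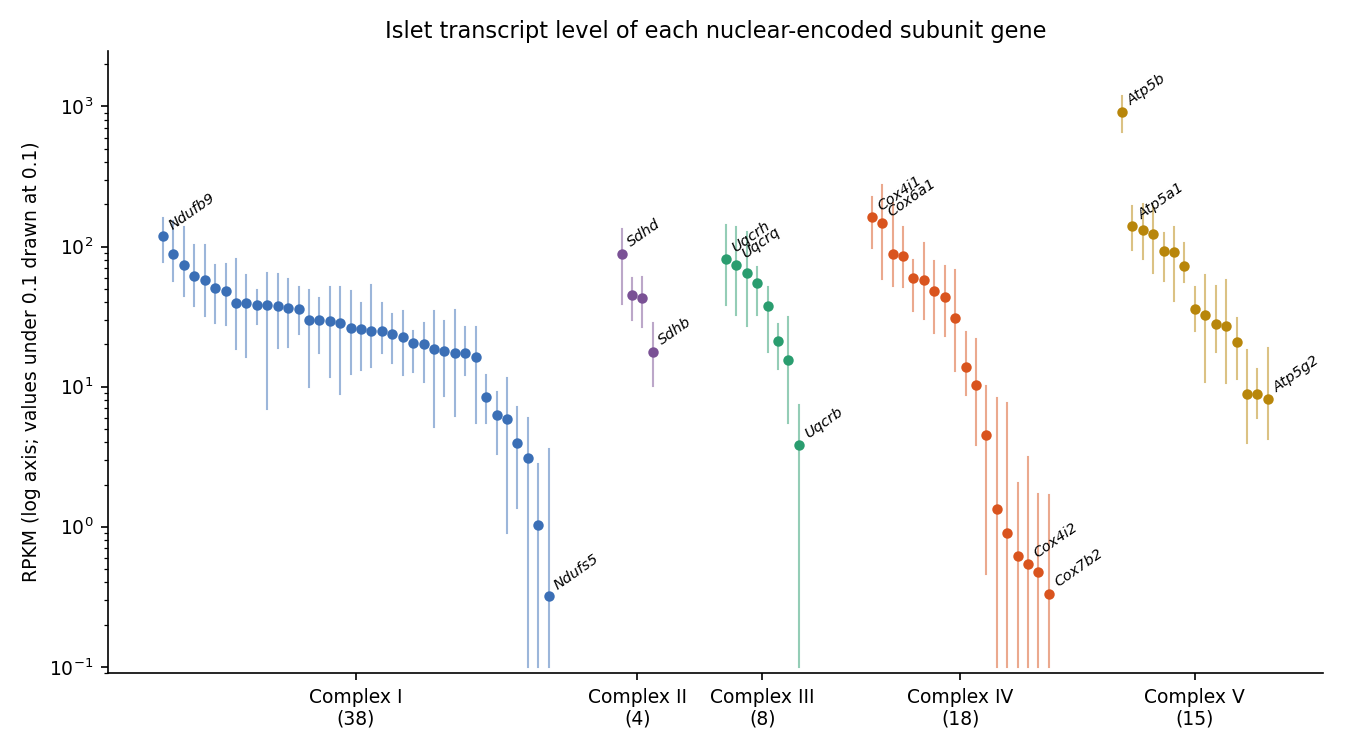
Level of the 83 subunit genes by complex, in RPKM on a log axis, with points for the mean of 12 animals, lines from the lowest to the highest animal and values under 0.1 drawn at 0.1. Atp5b at 912 RPKM stands above all other genes, and 5 complex IV genes and Ndufs5 lie under 1 RPKM.

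Within complex I, the highest mean was that of Ndufb9, an accessory subunit of the membrane arm (118 RPKM), and the lowest was that of Ndufs5 (0.320 RPKM). In complex II, the membrane anchor Sdhd (89.1 RPKM) and the flavoprotein Sdha (45.3 RPKM) were highest and the iron-sulphur subunit Sdhb lowest (17.8 RPKM). In complex III, the hinge protein Uqcrh (81.8 RPKM) and Uqcrq (73.8 RPKM), a small subunit near the ubiquinone site, led, and Uqcrb was lowest. In complex IV, Cox4i1 (162 RPKM) and Cox6a1 (146 RPKM), the isoforms of most tissues, led. The lowest in complex V was Atp5g2, 1 of 3 genes that encode the same mature c subunit.

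The c-subunit genes were unequal. Atp5g3 averaged 90.9 RPKM, against 8.80 RPKM for Atp5g1 and 8.18 RPKM for Atp5g2, and both lower genes have near-identical pseudogenes while Atp5g3 has none. In every animal Atp5g3 was the highest of the 3, between 41.1 and 137 RPKM, with no overlap with Atp5g1 (5.93 to 13.3 RPKM) or Atp5g2 (4.26 to 18.7 RPKM).

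Tissue isoforms of complex IV lay far apart. The ubiquitous forms Cox4i1, Cox6a1, Cox6b1, Cox7a2 and Cox8a averaged 57.3 to 162 RPKM. Their muscle, lung or testis counterparts Cox4i2, Cox6b2, Cox7a1, Cox8b and Cox8c averaged 0.478 to 1.34 RPKM, and Cox7b2, the paralogue of Cox7b, averaged 0.332 RPKM. Cox6a2, the isoform of heart and skeletal muscle, was the exception, with 2.41, 2.87, 4.14 and 7.55 RPKM in WT, 4.84, 1.38, 6.57 and 1.5 RPKM in Wfs1HZ and 10.1, 10.1, 2.06 and 0.46 RPKM in Wfs1KO. It was detected in every animal, and the 3 genotypes overlapped. The summed level of 8 striated muscle markers was 1.11 to 6.49 RPKM in the 12 animals. Ndufa4l2, the paralogue of Ndufa4, averaged 1.03 RPKM against 73.3 RPKM for Ndufa4.

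The single animals differed more than the genotypes. The summed RPKM of all subunit genes was 4311 ± 945 in WT, 3893 ± 680 in Wfs1HZ and 4468 ± 954 in Wfs1KO (SD, n = 4), so the differences between means were smaller than the SD within a genotype. The sums of complex I were 1642, 1234, 851 and 1033 RPKM in WT, 1398, 959, 1156 and 899 RPKM in Wfs1HZ and 1688, 1049, 874 and 1448 RPKM in Wfs1KO. Every genotype thus held both high and low animals. Complex II averaged 198 ± 46.3 RPKM in WT, 195 ± 44.3 RPKM in Wfs1HZ and 194 ± 49.9 RPKM in Wfs1KO. Complex III averaged 347 ± 102 RPKM in WT, 304 ± 70.1 RPKM in Wfs1HZ and 412 ± 120 RPKM in Wfs1KO. Complex IV averaged 707 ± 244 RPKM in WT, 682 ± 106 RPKM in Wfs1HZ and 878 ± 277 RPKM in Wfs1KO. The ranges of the 3 genotypes overlapped in each of these complexes. Complex V averaged 1871 ± 246 RPKM in WT, 1610 ± 290 RPKM in Wfs1HZ and 1719 ± 174 RPKM in Wfs1KO. Without Atp5b it averaged 831 ± 228 RPKM in WT, 726 ± 150 RPKM in Wfs1HZ and 906 ± 237 RPKM in Wfs1KO, so the order of WT and Wfs1KO depended on that gene.

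**Figure D2:**
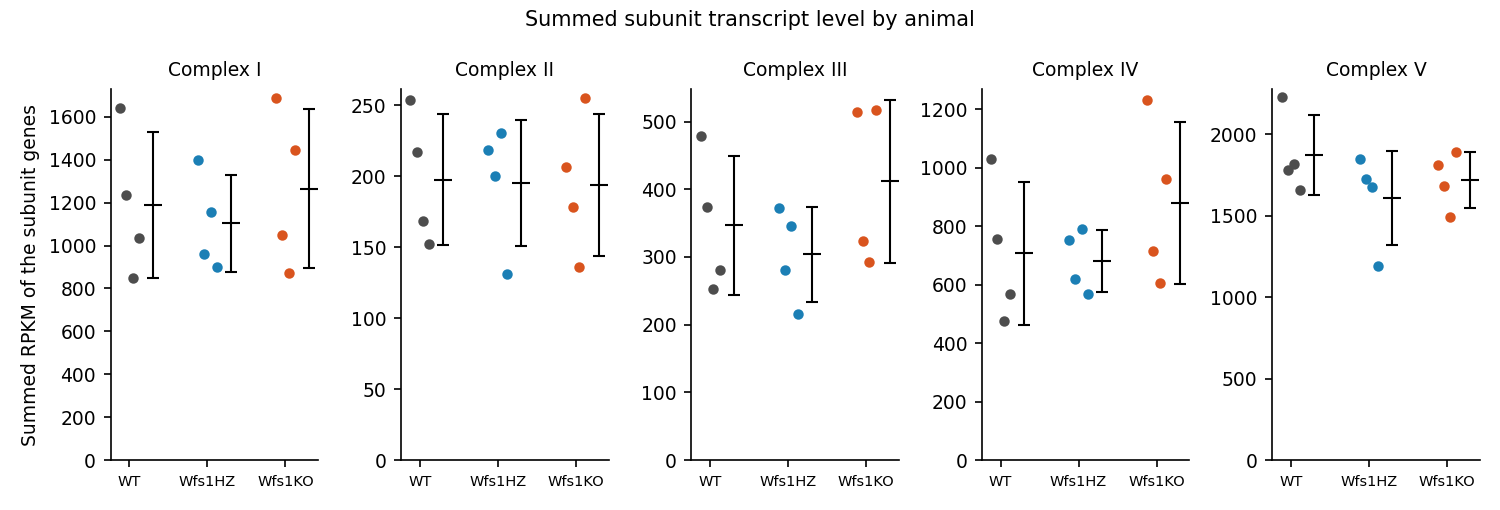
Summed RPKM of the subunit genes of each complex, 1 point an animal, with the mean and SD of 4 animals beside each genotype (WT, Wfs1HZ, Wfs1KO). Points of the 3 genotypes overlap in all 5 complexes.

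Among the 77 subunit genes with a mean of at least 1 RPKM, Wfs1KO replicate 1 was the highest animal for 32, WT replicate 1 for 21 and Wfs1KO replicate 4 for 15. Wfs1HZ replicate 4 was the lowest for 23 and WT replicate 3 for 20. The median deviation of these genes from their 12-animal mean was 0.57 (log2) in Wfs1KO replicate 1, 0.53 in WT replicate 1 and 0.40 in Wfs1KO replicate 4. It was -0.45 in Wfs1HZ replicate 4, -0.42 in WT replicate 3 and -0.29 in Wfs1KO replicate 3. All 13356 transcripts at or above 1 RPKM on average deviated by -0.62 in Wfs1HZ replicate 4 and -0.29 in Wfs1KO replicate 3, as low as the subunit genes or lower, but by 0.01 in WT replicate 3. In Wfs1HZ replicate 2 all transcripts were at 0.38 and the subunit genes at -0.13. In the 3 animals with the highest subunit genes, all transcripts were at 0.17, 0.14 and 0.23. The median SD within a genotype was 0.53 (log2) for subunit genes and 0.39 for all transcripts in WT, 0.46 and 0.59 in Wfs1HZ, and 0.49 and 0.44 in Wfs1KO.

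Other values are given beside these animals. Cytosolic ribosomal protein genes deviated by 0.65 in Wfs1KO replicate 1, 0.55 in Wfs1KO replicate 4 and 0.28 in WT replicate 1, and by -0.52 in Wfs1HZ replicate 4 and -0.47 in WT replicate 3. They were at -0.47 also in WT replicate 4, where subunit genes were at -0.15, and at -0.14 in Wfs1KO replicate 3, where subunit genes were lower. The highest acinar sums were those of Wfs1HZ replicate 4 (306526 RPKM), Wfs1KO replicate 3 (278017 RPKM) and WT replicate 3 (120423 RPKM), the animals with the lowest subunit deviations. Next came WT replicate 4 (113534 RPKM) and Wfs1HZ replicate 1 (105767 RPKM), with subunit genes at -0.15 and 0.13, so the order did not hold below WT replicate 3. Wfs1KO replicate 4 had the lowest acinar sum, 8468 RPKM, and Wfs1HZ replicate 2 the next lowest, 9050 RPKM. RPKM is a share of the library, and the part of acinar RNA in the subunit levels was not tested.

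**Figure D3:**
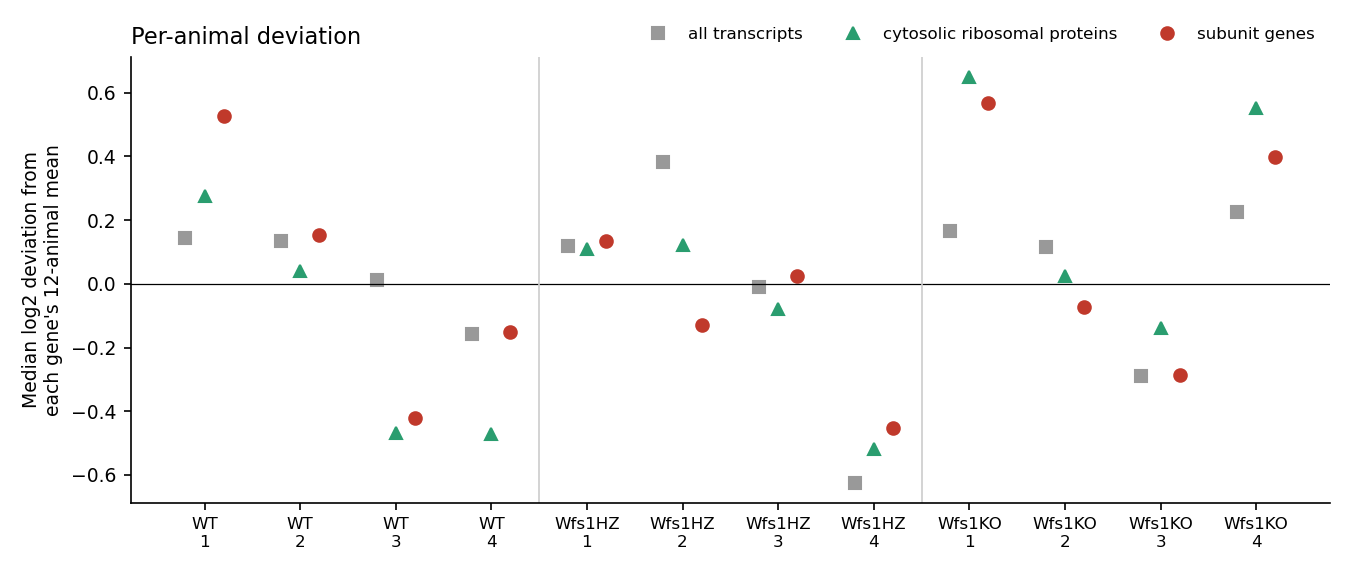
Median log2 deviation from each gene's 12-animal mean, per animal, for 13356 transcripts at or above 1 RPKM on average (squares), 80 cytosolic ribosomal protein genes (triangles) and 77 subunit genes (circles). Subunit genes run from -0.45 in Wfs1HZ replicate 4 to 0.57 in Wfs1KO replicate 1, and each genotype spans both sides of 0.

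The comparison of Wfs1KO with WT addresses whether truncation of wolframin, an endoplasmic reticulum protein, goes with altered transcript levels in islets. By limma on log2(RPKM + 0.1) with Benjamini-Hochberg adjustment, 0 of 86 members had an adjusted p under 0.05. Of the 21701 transcripts tested, 3 did, or 0.0138%. The lowest adjusted p of a member by limma was 0.84. The edgeR test of the study called more genes in this pair, among them Wfs1, Glipr2 and Trpm5. A count of 0 by limma on RPKM therefore does not show that no member differs. At an unadjusted p under 0.05, 2 members were higher (Cox4i2 and Cox7c) and 1 was lower, against 3.91% and 1.74% of all transcripts. The limma p-values rest on the spread between single animals, drawn toward a trend over transcripts of similar level. At the highest levels the trend widened the SE. The alpha cell marker Gcg had an SE of 7.42 (log2) in Wfs1HZ against WT, although its animals ran from 57527 to 182240 RPKM.

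With no member called, more subunit genes had a log2 fold change above 0 than below. Of all 21701 transcripts tested, 12465 were above 0 and 9236 below. Of 83 subunit genes, 61 were above 0 and 22 below, with a median of 0.16 against 0.07 for all transcripts. After median-of-ratios scaling the medians were 0.13 and 0.05. Sums of some other cell markers also differed between these genotypes. The 5 endothelial markers summed to 18.4 to 48.7 RPKM in WT and 53.3 to 63.04 RPKM in Wfs1KO, without overlap. The 6 fibroblast markers summed to 18.9 to 58.05 RPKM and 57.97 to 132 RPKM. Among the endothelial markers only Cdh5 separated the genotypes (7.61 to 17.91 and 25.65 to 31.19 RPKM), and the others overlapped. Among the fibroblast markers only Dcn did (13.95 to 28.82 and 41.96 to 73.07 RPKM). The beta cell sum, mostly Ins1, Ins2 and Iapp, averaged 100394 RPKM in WT and 56441 RPKM in Wfs1KO, with overlap. These hormone genes and G6pc2, Slc2a2 and Ucn3 each had a lower mean in Wfs1KO. Nkx6-1 had a higher mean there, and Mafa was hardly detected in either genotype. Each of these markers overlapped between the genotypes. The part of endothelial cells, fibroblasts and beta cells in the subunit levels was not tested. The median was 0.07 in complex I (25 of 38 above 0), -0.00 in complex II (2 of 4), 0.16 in complex III (5 of 8), 0.43 in complex IV (17 of 18) and 0.19 in complex V (12 of 15). Of the 18 complex IV genes, 5 lay under 1 RPKM, and without them 12 of 13 were above 0 with a median of 0.30. The excess depended on single animals: without WT replicate 3, 45 of 83 subunit genes were above 0 with a median of 0.03. The median was 0.05 without Wfs1KO replicate 1, 0.06 without Wfs1KO replicate 4 and 0.09 without WT replicate 4, and it was 0.36 without WT replicate 1. Without the 2 libraries richest in acinar markers, Wfs1HZ replicate 4 and Wfs1KO replicate 3, of which only the latter enters this comparison, 67 were above 0 with a median of 0.35.

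The 12 genes listed as catalytic core subunits had 6 above and 6 below 0 and a median of -0.01, which ran from -0.23 without WT replicate 4 to 0.19 without Wfs1KO replicate 3. The other 71 subunit genes had 55 above 0 and a median of 0.20. The median transcript was 1642 nt for the core genes and 704 nt for the others, and length moved with the fold change. Subunit genes with a transcript under 1000 nt had 46 of 54 above 0 and a median of 0.27, and those of 1000 nt or more had 15 of 29 above 0 and a median of 0.01. The median of the short class ran from 0.09 without WT replicate 3 to 0.46 without WT replicate 1, and that of the long class from -0.13 without WT replicate 4 to 0.15 without Wfs1KO replicate 3. The same gradient ran through the transcripts that averaged 1 RPKM or more: the median was 0.29 under 600 nt, 0.21 from 600 to 1000 nt, 0.10 from 1000 to 2000 nt, 0.03 from 2000 to 4000 nt and -0.03 above. In the first 4 classes the subunit genes stood at 0.28, 0.19, 0.02 and -0.02. Cytosolic ribosomal protein genes, most of them short too, had 78 of 82 above 0 with a median of 0.39. Their medians in the first 4 length classes were 0.61, 0.39, 0.31 and 0.42, so the longer ones were above 0 as well. Mitochondrial ribosomal protein genes had 44 of 75 above 0 with a median of 0.11. The median transcript was 602 nt in complex IV, 838 nt in complex V, 868 nt in complex I, 955 nt in complex III and 2066 nt in complex II. The part of transcript length in the fold changes was not tested.

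**Figure D4:**
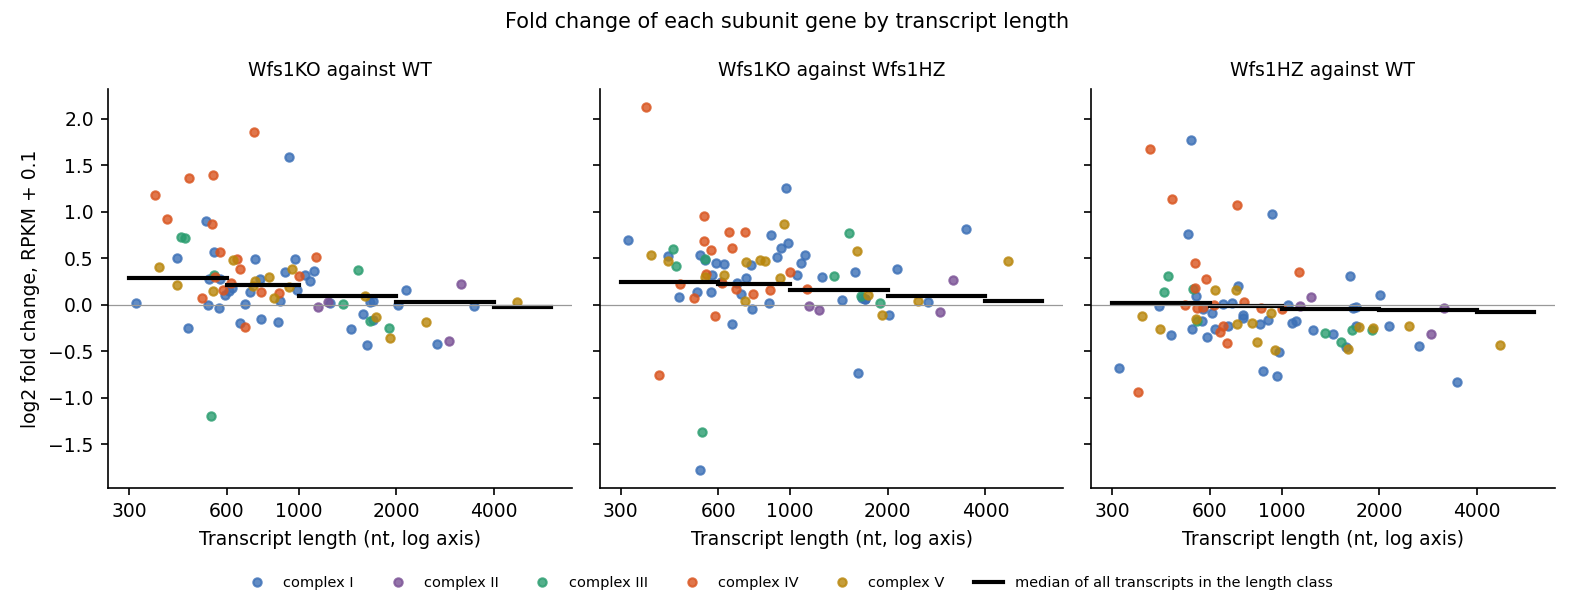
Log2 fold change (RPKM + 0.1) of each subunit gene against transcript length in nt (log axis) for the 3 pairs of genotypes, coloured by complex. Black bars give the median of the transcripts of each length class that averaged 1 RPKM or more. Points include subunit genes under 1 RPKM. In Wfs1KO against WT the bars step down from 0.29 under 600 nt to -0.03 above 4000 nt, and subunit genes of 1000 nt or more scatter around 0.

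For 3 members the Wfs1KO and WT animals did not overlap, 1 higher and 2 lower, against 1.75% of all transcripts higher, 0.991% lower and 2.74% in either direction. An exact two-sided permutation test gave p = 0.0286 for each, the smallest that 4 against 4 allows. Any gene whose animals do not overlap gets this p. Here and in the other pairs it restates the lack of overlap and adds no evidence. Values are given for Atp5b, which was lower, and Cox4i2, which was higher.

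Atp5b stood at 1080, 935, 1183 and 963 RPKM in WT and at 673, 912, 848 and 820 RPKM in Wfs1KO. The nearest animals of the groups were 935 and 912 RPKM. The difference was -0.36 ± 0.29 (SE) on the log2 scale, with an adjusted p of 0.93 by limma. This SE includes the limma trend and is not the spread of these animals alone. In Wfs1HZ it stood at 973, 1029, 875 and 658 RPKM, overlapping both. Cox4i2, the isoform of Cox4 known from lung and low oxygen, stood at 0, 0.15, 0 and 0.21 RPKM in WT and at 0.43, 0.22, 0.34 and 1.67 RPKM in Wfs1KO. These levels correspond to about 0, 1, 0 and 1 reads in WT and 3, 1, 2 and 4 reads in Wfs1KO. Its fitted log2 fold change of 1.85 ± 0.66 (SE, adjusted p = 0.84 by limma) went from 0.54 with a pseudocount of 1 to 3.51 with a pseudocount of 0.01, and Wfs1HZ replicate 2 had the highest level of all, 3.12 RPKM.

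**Figure D5:**
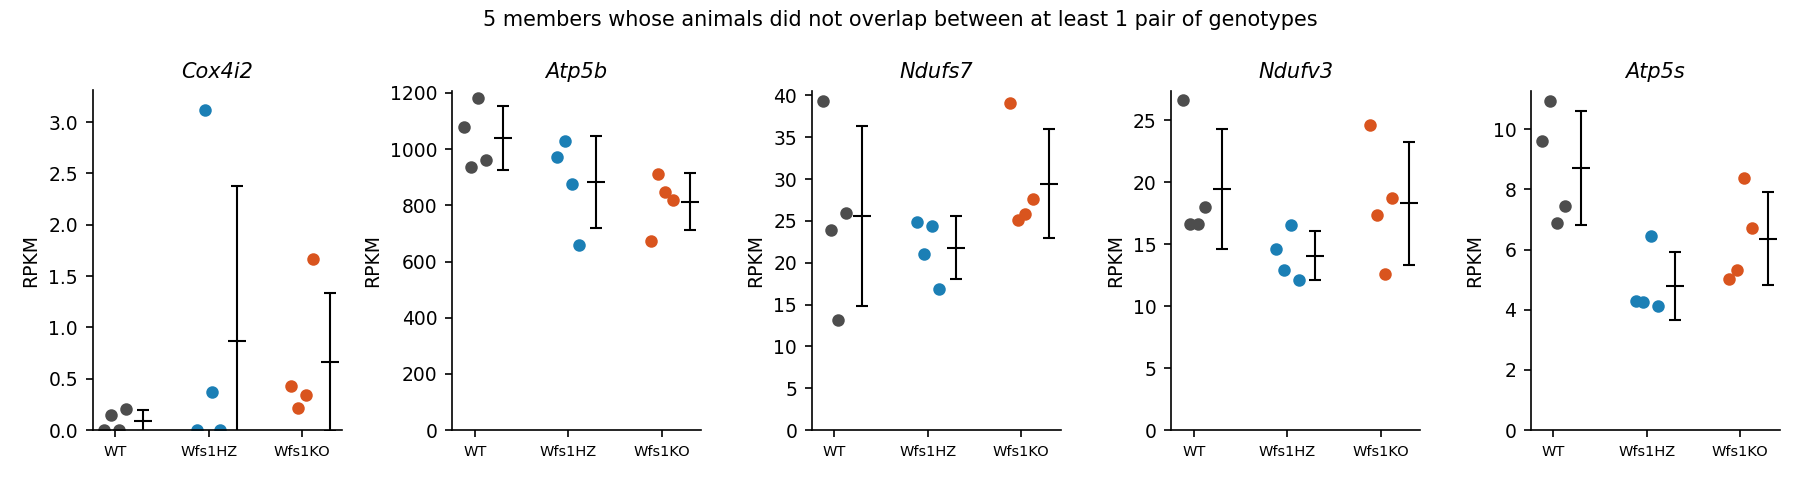
RPKM of 5 members whose animals did not overlap in at least 1 pair of genotypes, 1 point an animal, with the mean and SD of 4 animals beside each genotype (bars not drawn under 0). Atp5b is lower in all 4 Wfs1KO than in all 4 WT animals, and Cox4i2 levels rest on 0 to 5 reads an animal.

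Of the other core genes described, Sdha was at 59.3, 58.0, 53.1 and 41.4 RPKM in WT and at 41.8, 46.2, 30.1 and 44.1 RPKM in Wfs1KO, and the groups overlapped (log2 fold change -0.39 ± 0.19 SE, adjusted p = 0.88 by limma). Ndufs1, the largest core subunit of complex I and a carrier of several of its iron-sulphur clusters, averaged 19.5 ± 6.54 RPKM in WT and 14.0 ± 1.83 RPKM in Wfs1KO (SD, n = 4), also with overlap. The log2 fold changes of Ndufv1, Ndufv2, Sdhb and Uqcrfs1 lay between -0.03 and 0.04, and the sign of each turned under other settings. Atp5a1 was at -0.19, and Ndufs3, Ndufs7 and Ndufs8 at 0.32, 0.28 and 0.16, with overlap in all 4. Cox7c, a small complex IV subunit with a near-identical pseudogene in the table, was named for its unadjusted p after its values were seen. It averaged 7.98 ± 3.45 RPKM in WT and 14.1 ± 5.28 RPKM in Wfs1KO, and the groups overlapped (log2 fold change 0.86, adjusted p = 0.88 by limma).

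Compared with Wfs1HZ, Wfs1KO showed 0 members with an adjusted p under 0.05 by limma, against 0% of all transcripts. The edgeR test of the study did call genes in this pair, among them Trpm5 and Gad1. A count of 0 by limma on RPKM therefore does not show that nothing differs. At an unadjusted p under 0.05, 3 members were higher and 1 lower, against 1.70% and 0.756% of all. The 3 higher, named after their values were seen, were Cox8b, Atp5f1 and Uqcrq. Of all 21701 transcripts tested, 11600 had a log2 fold change above 0. Of 83 subunit genes 71 were above 0, with a median log2 fold change of 0.31 against 0.04 for all transcripts. With median-of-ratios scaling 61 were above 0, and with quantile normalization 54 were. Without Wfs1HZ replicate 4 the count was 54 with a median of 0.18, and without Wfs1KO replicate 1 it was 56 with a median of 0.17. By complex the median was 0.31 in I, -0.04 in II, 0.36 in III, 0.28 in IV and 0.46 in V. The core genes had a median of 0.05 with 8 of 12 above 0.

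Only Ndufs7, a core subunit that carries the last iron-sulphur cluster before ubiquinone (chr10:80249121-80256794), did not overlap between Wfs1KO and Wfs1HZ, against 0.926% of all transcripts higher, 0.502% lower and 1.43% in either direction. It was at 39.1, 25.1, 25.9 and 27.7 RPKM in Wfs1KO and at 24.9, 21.1, 24.4 and 16.8 RPKM in Wfs1HZ. The nearest animals were at 25.1 and 24.9 RPKM. On the log2 scale the difference was 0.43 ± 0.23 (SE, adjusted p = 1 by limma, exact permutation p = 0.0286). WT spanned both, from 13.1 to 39.3 RPKM. Atp5f1, subunit b of the peripheral stalk, averaged 23.6 ± 2.81 RPKM in Wfs1KO and 16.04 ± 3.55 RPKM in Wfs1HZ (SD, n = 4), with a near-identical pseudogene and with overlap. Uqcrq averaged 91.6 ± 32.9 and 54.1 ± 20.5 RPKM, again with overlap. Without both Wfs1HZ replicate 4 and Wfs1KO replicate 3, which leaves 3 against 3, 12 members did not overlap, against 7.43% of all transcripts with the same animals.

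Compared with WT, Wfs1HZ showed 0 members with an adjusted p under 0.05 by limma, against 0% of all transcripts. One gene, Atp5s, was lower at an unadjusted p under 0.05, against 1.27% of all transcripts lower, and none was higher, against 1.09%. Of all 21701 transcripts tested, 11539 had a log2 fold change above 0 and 10162 below. Of 83 subunit genes 24 were above 0 and 59 below, with a median log2 fold change of -0.16 against 0.04 for all transcripts. The direction rested on 1 animal: without WT replicate 1, 48 of 83 were above 0 and the median was 0.09. Without WT replicate 3 the count was 16 and the median -0.28. With median-of-ratios scaling 35 were above 0, with quantile normalization 36 were, and without Wfs1HZ replicate 4, the library richest in acinar markers, 37 were with a median of -0.02. The core genes had 11 of 12 below 0 with a median of -0.19.

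In this pair 2 members did not overlap, both lower in Wfs1HZ, against 0.576% of all transcripts higher, 1.08% lower and 1.66% in either direction. Ndufv3, an accessory subunit of the NADH-oxidizing part of complex I (chr17:31520115-31531331), was at 26.7, 16.7, 16.6 and 17.99 RPKM in WT and between 12.2 and 16.6 RPKM in Wfs1HZ. The nearest animals were at 16.61 and 16.59 RPKM, a gap far smaller than the SD of either group. On the log2 scale the difference was -0.45 ± 0.22 (SE, adjusted p = 1 by limma, exact permutation p = 0.0286). Atp5s, which encodes no subunit, was at 9.61, 10.9, 6.89 and 7.43 RPKM in WT and at 4.29, 4.27, 6.46 and 4.13 RPKM in Wfs1HZ. Its log2 fold change was -0.85 ± 0.27 (SE, adjusted p = 1 by limma, exact permutation p = 0.0286). The 3 comparisons share animals, so they are not independent of each other.

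Other genes of the pathway were read from lists of carriers, assembly factors, regulators and transporters. By limma none of them had an adjusted p under 0.05 in any pair. At an unadjusted p under 0.05 there were 3 between Wfs1HZ and WT, all lower and all assembly factors, where 1.27% of all transcripts were lower at that p. There were 0 between Wfs1KO and Wfs1HZ, where 1.70% were higher and 0.756% lower. Between Wfs1KO and WT there were 2, both higher and both among the 18 regulators of mitochondrial biogenesis, where 3.91% of all transcripts were higher. The last 2 were Tfb2m, a mitochondrial transcription factor (3.03 ± 0.55 RPKM in WT and 5.21 ± 1.70 RPKM in Wfs1KO, SD, n = 4), and Gabpb1, a subunit of the GABP factor (11.6 ± 1.92 and 15.9 ± 2.67 RPKM). The regulators had 12 of 18 above 0 and a median of 0.12. Ppargc1a, the coactivator that drives mitochondrial biogenesis, averaged 4.12 ± 0.58 RPKM in WT and 3.65 ± 2.54 RPKM in Wfs1KO, and Nrf1, like Ppargc1a named for its known role, averaged 5.98 ± 1.47 and 8.03 ± 1.43 RPKM.

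Among assembly factors, the median log2 fold change of Wfs1KO against WT was -0.05 for 10 factors of complex I (5 above 0), 0.20 for 7 of complexes II and III (5 above 0), 0.06 for 12 of complex IV (6 above 0) and -0.24 for 3 of complex V (1 above 0). Electron carriers and subunits with other symbols, such as cytochrome c1 (Cyc1, 45.6 ± 7.63 RPKM in WT and 49.97 ± 12.9 RPKM in Wfs1KO), had 5 of 10 above 0 and a median of 0.04. Carriers of ATP export and uncoupling had 3 of 10 above 0 and a median of -0.20. Among them Vdac1, the main channel of the outer membrane, did not overlap, at 91.2 ± 15.3 RPKM in WT and 69.7 ± 12.1 RPKM in Wfs1KO (log2 fold change -0.39, adjusted p = 0.88 by limma), as 0.991% of all transcripts did in that direction. In Wfs1HZ against WT, Tmem126a, an assembly factor of complex I, did not overlap, at 33.8 ± 9.38 against 58.8 ± 15.04 RPKM, and Ttc19, of complex III, at 6.82 ± 1.25 against 9.50 ± 1.46 RPKM, as 1.08% of all transcripts did in that direction. Neither had an adjusted p under 1 by limma.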

How the data were processed

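Islet total RNA of 12 mice was amplified with the Ovation RNA-Seq System V2 and sequenced on a SOLiD 5500xl as 75 bp and 35 bp reads. Reads were mapped to mm10 with LifeScope. The authors deposited 1 table of RPKM per transcript and sample. The counter, the annotation and its transcript lengths are not given in the sources used here, and no column lacked a sample. RPKM are not counts, so limma 3.58.1 (R 4.3.3) with trend was fitted to log2(RPKM + 0.1) for each pair of genotypes, in place of the edgeR test of the study, over the 21701 transcripts that averaged 0.1 RPKM or more, with Benjamini-Hochberg adjustment. Fold changes on this scale understate low genes. Single genes were tested by exact two-sided permutation, whose p is fixed in advance for genes picked because their animals do not overlap. The script was tested on simulated data. Other settings changed the pseudocount, filter, scaling, variance model, block and animals. Transcript lengths and coordinates are from GENCODE M21 (GRCm38), copies from blastn 2.17.0. Read estimates took the RPKM of short RNAs, of which 73.4% to 83.7% came out whole within 0.1 read. Members and lists were chosen with earlier results of these data known. Named genes were the 2 highest and the lowest of each complex, the core and isoform genes, and up to 5 members without overlap per pair. Animals were grouped by label. One gene that the rule would name is not reported here singly, and it remains in the counts, sums and medians.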

Additional observations from a re-analysis of the deposited data

Results flagged for a closer look

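In groups of 4 animals, 14 single animals stood apart from the rest of their genotype by Dixon's criterion, out of 129 groups examined. For 6 of the 14 the other 3 animals were listed at 0, where any value above 0 meets the criterion, so the chance rate of about 1 in 20 does not hold for them or for other genes at a few reads. Wfs1HZ replicate 2, the library with the fewest reads by the rough estimate, accounted for 6. It had 3.12 RPKM of Cox4i2 (others 0 to 0.37), 8.27 RPKM of Cox6b2 (others 0 to 0.90), 1.67 RPKM of Cox7b2 (others 0), 7.61 RPKM of Cox8c (others 0) and 3.57 RPKM of Ndufs5 (others 0 to 0.27), and a low 5.19 RPKM of Ndufs8 (others 16.9 to 18.8). The levels of Cox4i2, Cox7b2 and Ndufs5 there correspond to about 5, 2 and 4 reads.

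WT replicate 2 was the only WT animal above 0 for Cox7a1 (1.22 RPKM), Cox7b2 (0.41 RPKM) and Cox8c (0.23 RPKM). Wfs1HZ replicate 1 was the only Wfs1HZ animal above 0 for Cox8b (1.04 RPKM). Wfs1KO replicate 4 had 1.67 RPKM of Cox4i2 (others 0.22 to 0.43). Wfs1HZ replicate 3 had 6.46 RPKM of Atp5s (others 4.13 to 4.29), Wfs1HZ replicate 4 had 30.3 RPKM of Cox7a2 (others 47.2 to 50.6) and WT replicate 1 had 26.7 RPKM of Ndufv3 (others 16.6 to 17.99).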

How the results depend on the processing

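No setting gave a member an adjusted p under 0.05 in any pair. The median log2 fold change of the subunit genes ran from 0.03 to 0.36 between Wfs1KO and WT, from 0.17 to 0.45 between Wfs1KO and Wfs1HZ and from -0.28 to 0.09 between Wfs1HZ and WT when 1 animal was left out. The number of members without overlap ran from 3 to 6, 1 to 9 and 2 to 7 when 1 animal was left out, with the highest counts without WT replicate 4, Wfs1KO replicate 3 and WT replicate 4, where 5.19%, 4.31% and 3.41% of all transcripts did not overlap. Without the acinar-rich libraries, a setting chosen after seeing the data, it was 5 between Wfs1KO and WT and 12 between Wfs1KO and Wfs1HZ, against 6.33% and 7.43% of all transcripts. Quantile normalization raised the summed level of complex V in Wfs1HZ from 1610 to 2041 RPKM. The cause was not tested. Between Wfs1KO and WT, Uqcrfs1 turned to -0.025 with median-of-ratios scaling, -0.077 with quantile normalization and -0.0014 with sample weights, and Ndufv1 to -0.011 and -0.028 under the last 2. Sdhb turned to 0.11 with sample weights and 0.22 without the acinar-rich libraries. With 1 animal left out, Uqcrfs1 ran from -0.21 to 0.18, Ndufv1 from -0.25 to 0.22, Ndufv2 from -0.18 to 0.32, Sdhb from -0.27 to 0.22, Ndufs7 from -0.0024 to 0.52 and Ndufs8 from -0.089 to 0.31. The replicate block gave 0 members with an adjusted p under 0.05 by limma and changed no call. Its medians were the same (0.16 between Wfs1KO and WT) because the design is balanced, so they are no check. Same-numbered animals deviated together only weakly, with correlations of -0.17 to 0.23, and the numbers were not taken as pairs. An animal correlated best with the same number in the other genotype in 3 cases between Wfs1KO and WT. It did so in 1 case between Wfs1KO and Wfs1HZ and in 5 between Wfs1HZ and WT. Whether the numbers mark a shared batch was not tested. Genes under 1 RPKM rest on a few reads, which limits what could be seen for the tissue isoforms.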
